A study of Homo sapiens with 44 samples.

Results

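The integrated stress response and serine-cystine metabolism module is a set of 38 genes named by symbol: the stress response transcription factors, the kinases and phosphatase subunit that set eIF2alpha phosphorylation, and the amino acid transporters and enzymes that these factors are known to switch on. All 38 were found among the 58735 genes of a table of read counts and among the 27315 symbols of a table of variance-stabilised values. They comprise 6 transcription factors, 7 kinases and stress regulators, 8 amino acid transporters, 7 enzymes of serine and mitochondrial one-carbon metabolism, 6 other amino acid enzymes, and 4 genes for secreted proteins, a receptor and a tRNA exporter.

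In the integrated stress response, kinases including PERK (EIF2AK3) and GCN2 (EIF2AK4) phosphorylate the translation initiation factor eIF2alpha. General translation then falls while the mRNA of the transcription factor ATF4 is translated more. ATF4, paired with C/EBP family partners, binds composite C/EBP-ATF response elements and switches on genes for amino acid import, serine and asparagine synthesis, mitochondrial folate enzymes and cystine uptake, a programme that breast cancer cells are known to use when amino acids or redox capacity are short.

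Polyadenylated RNA was sequenced from 2 human triple-negative breast cancer lines, MDA-MB-231, usually described as mesenchymal (claudin-low), and SUM149, a line from an inflammatory carcinoma usually described as basal. The 14 libraries form 7 groups of 2 biological replicates, all transfected with 20 nM siRNA and harvested after 48 h: in the first experiment siRelA, siRelB and control siRNA in MDA-MB-231 cells, and in the second siEZH2 and control siRNA in MDA-MB-231 and siEZH2 and control siRNA in SUM149. RelA (RELA) and RelB (RELB) are the canonical and non-canonical NF-kB subunits, and EZH2 is the methyltransferase of Polycomb repressive complex 2. Knockdown was transient and in bulk cultures, the siRNA sequences are unknown from the sources used, and the 30 chromatin immunoprecipitation libraries of the series were not analysed here.

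Depth was 18599848 to 24431753 counted reads per library in the first experiment, and read totals recovered from the variance-stabilised values were about 17400000 to 38100000 in the second. RELA fell 13.0-fold in siRelA cells, RELB fell 7.88-fold in siRelB cells, and EZH2 fell 9.08-fold in siEZH2 MDA-MB-231 cells and 5.54-fold in siEZH2 SUM149 cells, each against its control. RELB was lower under other siRNAs too: it fell 2.8-fold in siRelA cells, 3.13-fold in siEZH2 MDA-MB-231 cells and 1.73-fold in siEZH2 SUM149 cells. Of the basal keratins, KRT5 stood at 1015 and 1027 normalised reads in SUM149 controls and was at 0 in MDA-MB-231 controls, while KRT14 was at 0 to 2 reads in controls of both lines. The mesenchymal markers differed in direction between the lines. VIM was at 62193 and 64843 normalised reads in SUM149 controls, against 35175 and 33519 in MDA-MB-231 controls, and ZEB1 at 1218 and 1260, against 1261 and 1198. CD44 was lower in SUM149 controls, at 6778 and 7095 against 9624 and 9645, and SPARC was at 0 against 6 and 8. The epithelial marker EPCAM was at 1594 and 1460 in SUM149 controls, against 1410 and 1297 in MDA-MB-231 controls. CDH1 was at 116 and 102 against 25 and 24, KRT17 at 248 and 250 against 13 and 20, and KRT6B at 124 and 163 against 0. The line identities are those of the labels. These markers also moved with siEZH2. EPCAM fell to 175 and 166 normalised reads in SUM149 and to 518 and 556 in MDA-MB-231, CDH1 rose in SUM149 and fell in MDA-MB-231, and VIM, ZEB1 and CD44 rose in both lines. The basal keratins went the other way from EPCAM in SUM149 for KRT5, at 1949 and 1766 with siEZH2, and KRT17, at 637 and 600. KRT6B was at 112 and 123 there. The 4 mesenchymal markers summed to 100411 to 104402 normalised reads with siEZH2 and 70189 to 73198 with control siRNA in SUM149 (SPARC at 0 in both controls), and to 68112 to 70787 with siEZH2 and 44370 to 46066 with control siRNA in MDA-MB-231. The fibroblast marker DCN was also present in SUM149, at 4626 and 4334 normalised reads with siEZH2 and 2024 and 2201 with control siRNA, with 3 of the 5 fibroblast markers above 0 in the controls and COL1A2 and LUM at 0. Their summed level was 4619 to 4865 normalised reads with siEZH2 and 2217 to 2351 with control siRNA, against 642 to 689 with siEZH2 and 324 to 341 with control siRNA in MDA-MB-231. In the first experiment the same list summed to 1463 to 1987 reads with siRelA, 908 to 1025 with siRelB and 967 to 1046 with control siRNA, with DCN at 0 throughout. The part of these transcripts in the results was not tested. In these bulk libraries fewer cells with a transcript and less transcript per cell cannot be told apart.

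The composite element was searched in promoter windows of RefSeq (GRCh38.p14, 250 bases before to 50 after each annotated start) as the letters TGATGNAA on both strands, where N is any base. Windows were found for 33 of the 38 genes, and 10 of them (30.3%) held the letters in at least 1 window, against 4.46% of the 27305 genes with a window. A gene can have several windows: of the 57 windows of these genes 12 held the letters, against 3.62% of all 35116 windows. The 10 were ATF3, CEBPG, CHAC1, SLC1A4, SLC3A2, SLC7A1, SLC1A5, MTHFD1L, ASNS and BCAT1. The sequences of 7 of them are shown because their transcripts changed most often or by most in the results that follow; each is written on the gene's own strand from 5′ to 3′, with the match in capitals and 10 bases on either side.
SLC7A1: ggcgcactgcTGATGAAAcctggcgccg
MTHFD1L: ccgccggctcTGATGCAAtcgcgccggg
BCAT1: gtcttcctgcTGATGCAAtccgctaggt
SLC1A5: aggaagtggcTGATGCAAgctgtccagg
ATF3: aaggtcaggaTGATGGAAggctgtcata
CHAC1: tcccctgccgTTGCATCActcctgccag
ASNS: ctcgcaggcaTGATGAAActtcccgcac

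The windows of SLC7A1, MTHFD1L and BCAT1 hold the letters TGATGAAA or TGATGCAA. The SLC7A1 match lies at bases 8 to 15 after the start on the minus strand (excerpt chr13:29595664-29595691), the MTHFD1L match at -129 to -122 on the plus strand (chr6:150866347-150866374) and the BCAT1 match at -48 to -41 on the minus strand (chr12:24949132-24949159). In SLC1A5 the match lay at -97 to -90 on the minus strand (chr19:46784894-46784921), in ATF3 at -191 to -184 on the plus strand (chr1:212565206-212565233) and in ASNS at -68 to -61 on the minus strand (chr7:97872459-97872486). CHAC1, on the plus strand, holds it in the opposite orientation at -209 to -202 (chr15:40953252-40953279), so its capitals read TTGCATCA. A match is a description of letters and not evidence of binding. A degenerate NF-kB consensus was searched in the same windows and was present in SESN2 and CBS, which is 2 of the 33 genes (6.06%), against 7.09% of all genes with a window.

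The study asked how EZH2 and the NF-kB subunits act on transcription in these lines, and the first comparison here is the effect of each knockdown on the 38 genes. Changes are given ± SE as log2 fold changes (edgeR) in the first experiment and as differences in variance-stabilised units (limma), a log2-like scale that compresses genes with few reads, in the second. A gene was called at an adjusted p (Benjamini-Hochberg over all genes tested) under 0.05. Under siEZH2, 20 of 38 genes fell and 4 rose in MDA-MB-231, where 27.1% of all 12356 genes tested fell and 29.4% rose. In SUM149, siEZH2 lowered 26 of 38 and raised 3, against 28.6% of all genes lower and 29.4% higher. With siRelA, 12 of 37 genes fell and 2 rose, where 10.2% of all 15930 genes fell and 8.82% rose. With siRelB, 3 of 37 fell and none rose by edgeR, where 10.8% of all genes fell and 7.45% rose; DESeq2 also called none higher, and 6 had a rise at an unadjusted p under 0.05. The median change of the members was -0.33 in SUM149 and -0.17 in MDA-MB-231 under siEZH2, -0.18 under siRelA and -0.02 under siRelB, against medians of 0.00, 0.00, 0.02 and 0.01 over all genes tested in the same comparisons.

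**Figure D1:**
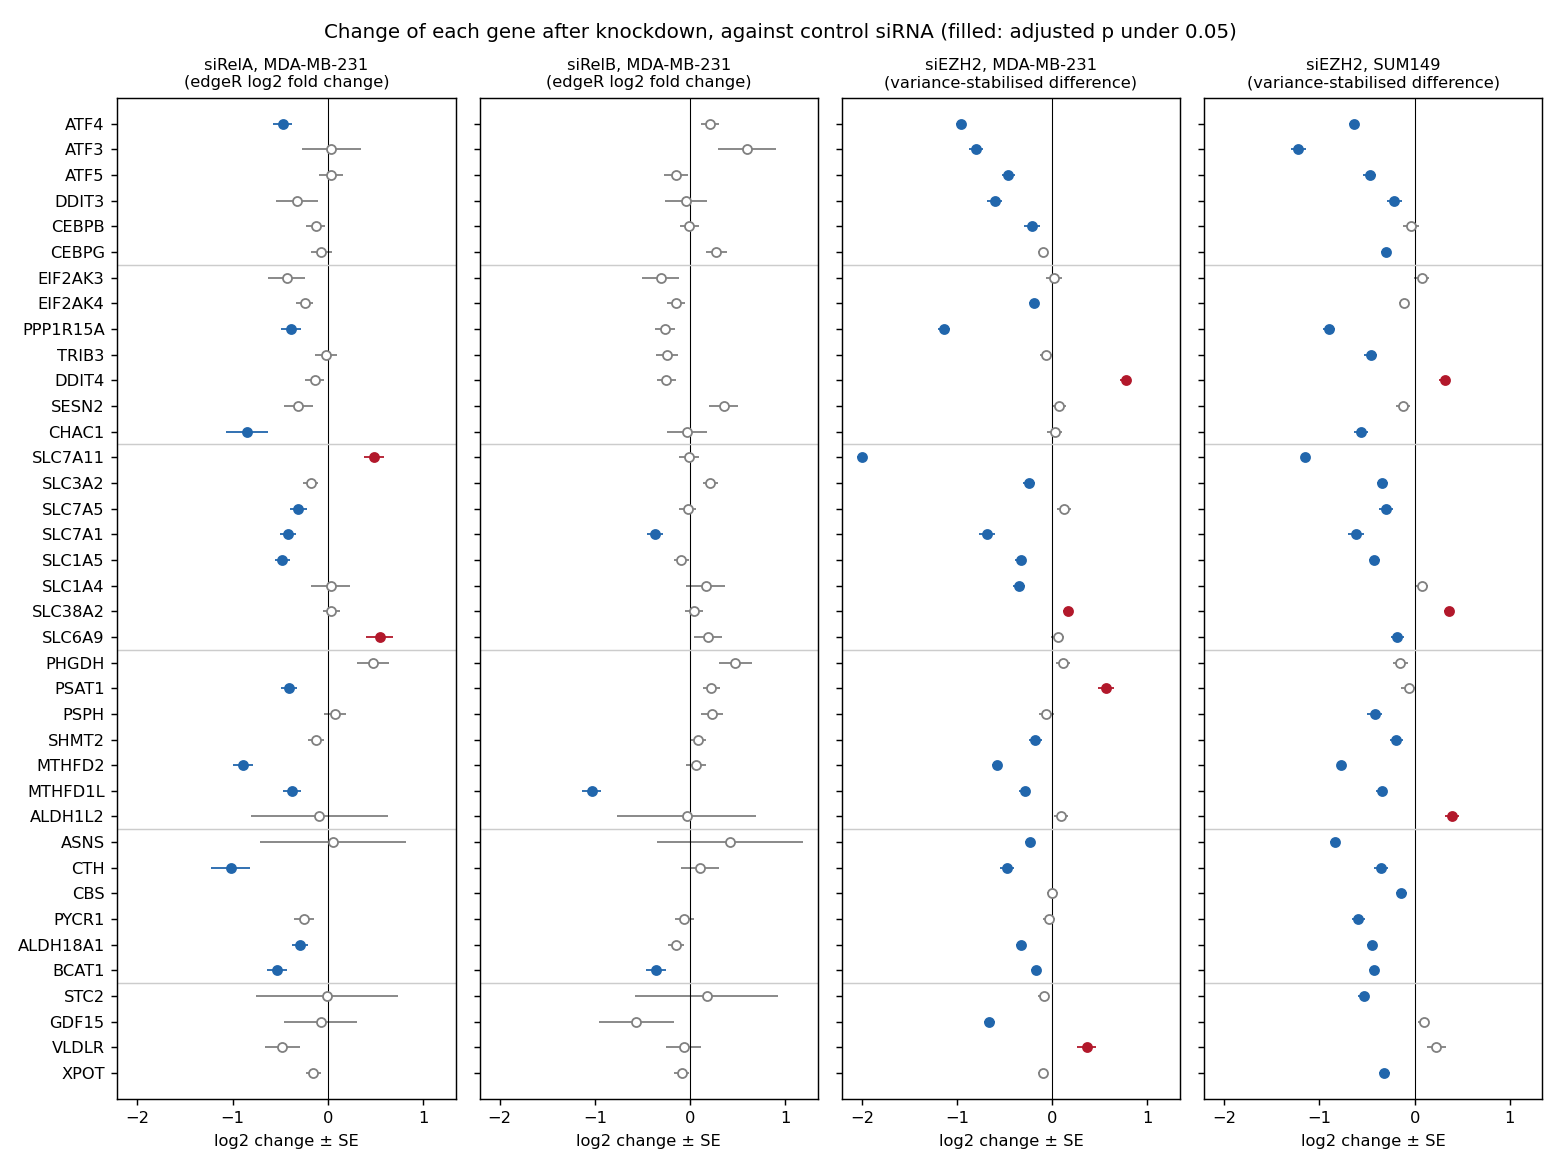
Change ± SE of each of the 38 genes (rows, in blocks by role) after siRelA, siRelB and siEZH2 against control siRNA; the 2 left panels are edgeR log2 fold changes and the 2 right panels differences in variance-stabilised units. Filled points passed an adjusted p of 0.05: the siEZH2 panels hold 20 and 26 filled points below 0, the siRelA panel 12 and the siRelB panel 3, and SLC7A11 lies at -2.0 in siEZH2 MDA-MB-231 cells but at 0.49 in siRelA cells.

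Among the transcription factors, ATF4, the central activator of the response, fell in 3 of the 4 knockdowns. It stood at 92.5 and 113.3 CPM (read counts scaled to library size) in siRelA cells, at 164.0 and 166.3 CPM in siRelB cells and at 143.4 and 142.5 CPM in control cells. The siRelA libraries lay below both other groups and the siRelB libraries above the controls, with no overlap. The siRelA change was -0.48 ± 0.10 (adjusted p = 0.00224), the siRelB change was 0.21 ± 0.10 (adjusted p = 0.149), and siRelA lay 0.68 ± 0.10 below siRelB, a log2 change of -0.68 (adjusted p = 5.7e-05). Under siEZH2, ATF4 had 4139 and 4281 normalised reads in MDA-MB-231, against 8475 and 8447 in its controls. In SUM149 it had 10371 and 10174 normalised reads with siEZH2, against 15941 and 16240 with control siRNA. Both pairs were fully separated, by -0.96 ± 0.05 in MDA-MB-231 (adjusted p = 4.89e-09) and by -0.63 ± 0.05 in SUM149 (adjusted p = 2.57e-07).

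ATF3, a stress-induced repressor and ATF4 target, had the largest fall of any member in SUM149 under siEZH2. Its levels there were 38 and 51 normalised reads, against 287 and 358 in controls, a 7.28-fold difference of means and a change of -1.22 ± 0.07 (adjusted p = 2.63e-08). In siEZH2 MDA-MB-231 cells it had 84 and 99 normalised reads, against 300 and 287 in controls, which is 3.2-fold and -0.80 ± 0.07 (adjusted p = 1.12e-06). All 4 siEZH2 libraries lay below all 4 controls. In the first experiment ATF3 was counted with only 61 to 119 reads per library and passed in neither siRelA (0.04 ± 0.31) nor siRelB (0.60 ± 0.30). ATF5, a factor linked to the mitochondrial stress response, fell by 0.46 ± 0.07 in MDA-MB-231 and by 0.47 ± 0.07 in SUM149 under siEZH2. DDIT3 (CHOP), which promotes death under prolonged stress, fell by 0.60 ± 0.08 in MDA-MB-231 and by 0.21 ± 0.08 in SUM149 (adjusted p = 0.0317). CEBPB and CEBPG encode C/EBP partners of ATF4: CEBPG fell by 0.30 ± 0.05 in siEZH2 SUM149 cells, and CEBPB fell by 0.21 ± 0.08 in siEZH2 MDA-MB-231 cells (adjusted p = 0.0488). None of ATF3, ATF5, DDIT3, CEBPB and CEBPG passed under siRelA or siRelB.

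The module holds 2 of the eIF2alpha kinases. EIF2AK3 (PERK, the kinase of endoplasmic reticulum stress) passed in none of the 4 knockdowns, with changes of -0.43 ± 0.19 (siRelA), -0.31 ± 0.20 (siRelB), 0.02 ± 0.08 (siEZH2, MDA-MB-231) and 0.07 ± 0.08 (siEZH2, SUM149). EIF2AK4 (GCN2, which senses uncharged tRNA) fell by 0.19 ± 0.05 in siEZH2 MDA-MB-231 cells. PPP1R15A (GADD34), the regulatory subunit that directs phosphatase to eIF2alpha and so ends the response, had 3041 and 3507 normalised reads in siEZH2 MDA-MB-231 cells, against 7371 and 7650 in controls, and 1715 and 1828 in siEZH2 SUM149 cells, against 3656 and 3398 in controls. The groups were separated in both lines, by -1.14 ± 0.07 (adjusted p = 1.29e-08) and -0.90 ± 0.07 (adjusted p = 1.32e-07). In siRelA cells PPP1R15A stood at 75.8 and 93.6 CPM, against 110.4 and 110.8 CPM in controls, a change of -0.39 ± 0.10 (adjusted p = 0.0126), and in siRelB cells it stood at 91.8 and 92.5 CPM (-0.26 ± 0.10, adjusted p = 0.083).

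DDIT4 (REDD1), a stress-induced inhibitor of mTORC1, went the other way. Its level was 2038 and 2250 normalised reads in siEZH2 MDA-MB-231 cells, against 1136 and 1158 in controls, and 9608 and 10224 in siEZH2 SUM149 cells, against 8159 and 7650 in controls. All siEZH2 libraries exceeded the controls of their own line, by 0.77 ± 0.06 in MDA-MB-231 (adjusted p = 1.78e-07) and 0.32 ± 0.06 in SUM149 (adjusted p = 0.000455). TRIB3, a pseudokinase that restrains ATF4, fell by 0.46 ± 0.07 in siEZH2 SUM149 cells and had a change of -0.06 ± 0.07 in siEZH2 MDA-MB-231 cells. SESN2 (sestrin 2, a leucine sensor upstream of mTORC1) passed in no knockdown against control, but its levels in siRelA and siRelB cells lay on either side of the control: 12.5 and 14.0 CPM with siRelA, 19.9 and 22.0 CPM with siRelB and 17.2 and 15.6 CPM with control siRNA. The direct difference of siRelA from siRelB was -0.66 ± 0.15 (adjusted p = 0.0035).

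CHAC1, an enzyme that degrades glutathione and a sensitive ATF4 target, had 3.93 and 5.46 CPM in siRelA cells, 8.28 and 8.23 CPM in siRelB cells and 8.62 and 8.25 CPM in controls. Both siRelA libraries lay below the other 4, a change of -0.85 ± 0.22 against control (adjusted p = 0.0122) and -0.82 ± 0.22 against siRelB (adjusted p = 0.0106). In SUM149, siEZH2 libraries had 278 and 230 normalised reads, against 465 and 485 in controls, a change of -0.56 ± 0.08 (adjusted p = 3.79e-05). In MDA-MB-231 the siEZH2 libraries (108 and 110 normalised reads) fell between the controls (87 and 124).

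**Figure D2:**
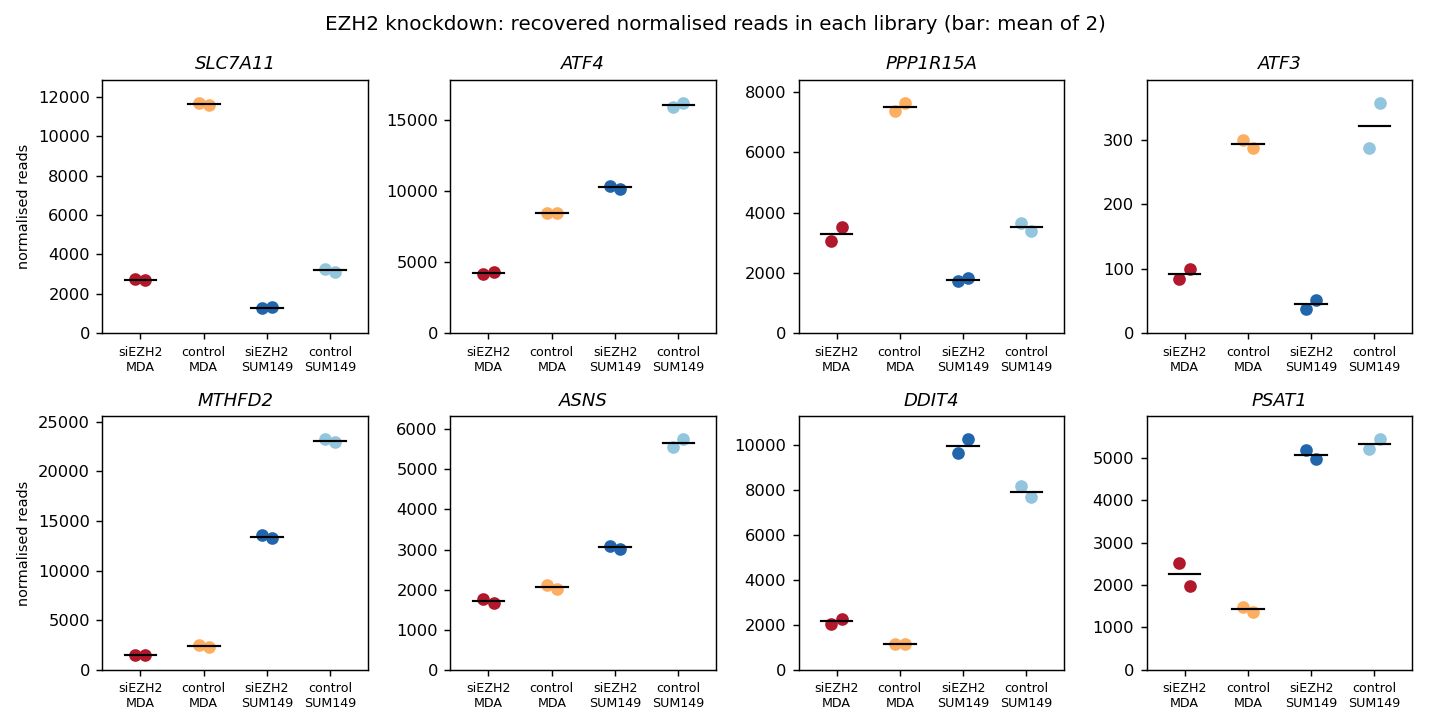
Recovered normalised reads (linear axis from 0) of 8 genes in each library of the EZH2 experiment, with siEZH2 left of its control in each line and a bar at the mean of 2; MDA is MDA-MB-231. SLC7A11, ATF4, PPP1R15A, ATF3, MTHFD2 and ASNS lie below their control in both lines, DDIT4 lies above it in both, and PSAT1 lies above it in MDA-MB-231, at 2527 and 1977 against 1492 and 1362.

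Among the transporters, SLC7A11 (xCT), which imports cystine in exchange for glutamate, had the largest change of the module. It had 2728 and 2696 normalised reads in siEZH2 MDA-MB-231 cells, against 11710 and 11617 in controls. In SUM149 the values were 1269 and 1318 with siEZH2, against 3243 and 3117 with control siRNA. The groups were far apart in each line, 4.3-fold in MDA-MB-231 (-2.0 ± 0.05, adjusted p = 2.36e-11) and 2.46-fold in SUM149 (-1.15 ± 0.05, adjusted p = 1.54e-09). The direction was opposite with siRelA, where SLC7A11 had 139.3 and 151.9 CPM, against 93.3 and 114.7 CPM in controls and 108.4 and 97.4 CPM in siRelB cells. Both siRelA libraries exceeded the other 4, with changes of 0.49 ± 0.10 against control (adjusted p = 0.0033) and 0.50 ± 0.10 against siRelB (adjusted p = 0.00168). Without control replicate 1 the siRelA change was 0.33 and its adjusted p 0.0973. The NRF2 gene NFE2L2, whose product also switches on SLC7A11, was no member and had changes of 0.13 (siRelA), 0.33 (siRelB, adjusted p = 0.016), 0.03 (siEZH2, MDA-MB-231) and 0.02 (siEZH2, SUM149).

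SLC7A1 (CAT-1), the main importer of arginine and other cationic amino acids, was lower in every knockdown. It had 280.7 and 246.1 CPM in siRelA cells, 284.3 and 260.6 CPM in siRelB cells and 346.2 and 356.5 CPM in controls, so the 4 knockdown libraries lay below the 2 controls that both comparisons share. The changes were -0.42 ± 0.09 with siRelA (adjusted p = 0.00244) and -0.37 ± 0.09 with siRelB (adjusted p = 0.00628). Under siEZH2, SLC7A1 had 3933 and 3186 normalised reads in MDA-MB-231, against 6110 and 5612 in controls, and 7146 and 6509 in SUM149, against 10543 and 10653 in controls. These were changes of -0.68 ± 0.08 (adjusted p = 9.67e-06) and -0.62 ± 0.08 (adjusted p = 2.45e-05). Without siRelB replicate 2 the siRelB change of SLC7A1 was -0.32 (adjusted p = 0.0685).

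SLC1A5 (ASCT2), a glutamine and neutral amino acid exchanger, had 185.9 and 187.1 CPM in siRelA cells, 235.7 and 251.9 CPM in siRelB cells and 267.3 and 251.7 CPM in controls. The siRelA libraries lay below the other groups (-0.48 ± 0.08, adjusted p = 0.000472), while the siRelB libraries reached into the control range (-0.09 ± 0.08, adjusted p = 0.487). With siEZH2 it had 5802 and 5462 normalised reads in MDA-MB-231, against 7160 and 7168 in controls, and 5886 and 5591 in SUM149, against 7414 and 8176 in controls. Those falls were 0.33 ± 0.06 and 0.42 ± 0.06 in size. SLC3A2, the heavy chain that carries both xCT and LAT1 to the membrane, fell by 0.24 ± 0.06 in MDA-MB-231 and by 0.34 ± 0.06 in SUM149 under siEZH2. SLC7A5 (LAT1, which imports leucine) fell by 0.31 ± 0.09 with siRelA (without siRelA replicate 2 the change was -0.18, adjusted p = 0.18) and by 0.30 ± 0.07 with siEZH2 in SUM149. SLC1A4, an exchanger of serine and alanine, fell by 0.35 ± 0.06 in siEZH2 MDA-MB-231 cells and had a change of 0.08 ± 0.06 in siEZH2 SUM149 cells.

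The transporters SLC38A2 and SLC6A9 rose in at least 1 knockdown. SLC38A2 (SNAT2, the inducible importer of small neutral amino acids) had 8027 and 7702 normalised reads in siEZH2 MDA-MB-231 cells, against 7095 and 6922 in controls, and 11374 and 11051 in siEZH2 SUM149 cells, against 8768 and 8584 in controls. The groups did not overlap, and the rises were 0.16 ± 0.05 (adjusted p = 0.0169) and 0.36 ± 0.05 (adjusted p = 5.15e-05). SLC6A9 (GLYT1, a glycine transporter) had 27.1 and 25.8 CPM in siRelA cells, 19.1 and 22.3 CPM in siRelB cells and 19.1 and 17.2 CPM in controls. Both siRelA libraries were above the other 4, with a change of 0.54 ± 0.14 against control (adjusted p = 0.0121). In siEZH2 SUM149 cells SLC6A9 fell by 0.18 ± 0.07 (adjusted p = 0.0376).

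The 3 enzymes of serine synthesis from glycolysis did not move together. PHGDH, the first enzyme, passed in none of the 4 knockdowns. PSAT1, the aminotransferase of the second step, had 91.9 and 94.0 CPM in siRelA cells, 140.4 and 147.4 CPM in siRelB cells and 125.4 and 120.8 CPM in controls. The siRelA libraries were below and the siRelB libraries above the controls, with changes of -0.41 ± 0.09 (adjusted p = 0.00287) and 0.23 ± 0.08 (adjusted p = 0.0766). Under siEZH2, PSAT1 rose in MDA-MB-231 to 2527 and 1977 normalised reads, against 1492 and 1362 in controls (0.57 ± 0.08, adjusted p = 6.34e-05). In SUM149 it had 5188 and 4964 normalised reads with siEZH2, against 5201 and 5434 with control siRNA (-0.06 ± 0.08, adjusted p = 0.532). PSPH, the phosphatase that releases serine, fell by 0.42 ± 0.08 in siEZH2 SUM149 cells and had a change of -0.06 ± 0.08 in siEZH2 MDA-MB-231 cells.

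Of the mitochondrial one-carbon enzymes, MTHFD2, which oxidises methylene-tetrahydrofolate, fell in 3 knockdowns. It had 28.9 and 32.5 CPM in siRelA cells, 58.7 and 60.6 CPM in siRelB cells and 55.5 and 58.4 CPM in controls. The siRelA level was 1.86-fold below the control (-0.89 ± 0.11, adjusted p = 1.81e-05), while siRelB libraries lay just above the controls (0.07 ± 0.11, adjusted p = 0.716). Under siEZH2 the values were 1475 and 1529 normalised reads in MDA-MB-231, against 2464 and 2298 in controls, and 13614 and 13264 in SUM149, against 23228 and 22925 in controls. Those are changes of -0.58 ± 0.05 and -0.77 ± 0.05 (adjusted p = 7.73e-07 and 6.68e-08). SHMT2, which splits serine into glycine and a one-carbon unit, fell by 0.18 ± 0.07 in MDA-MB-231 and by 0.19 ± 0.07 in SUM149 under siEZH2 (adjusted p = 0.0381 and 0.0263).

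MTHFD1L, the formate-producing synthetase of mitochondria, had the largest siRelB change of the module. It had 34.0 and 35.3 CPM in siRelB cells and 55.2 and 53.9 CPM in siRelA cells, against 71.0 and 70.8 CPM in controls. The 3 groups did not overlap, with siRelB lowest: 2.04-fold below control (-1.03 ± 0.10, adjusted p = 2.4e-06), where siRelA was -0.38 ± 0.10 (adjusted p = 0.012). The direct difference of siRelA from siRelB was 0.65 ± 0.10 (adjusted p = 0.00013). Under siEZH2 MTHFD1L had 1227 and 1174 normalised reads in MDA-MB-231, against 1612 and 1438 in controls, and 1608 and 1555 in SUM149, against 2058 and 2098 in controls. These falls were 0.29 ± 0.06 and 0.34 ± 0.06 in size (adjusted p = 0.00101 and 0.000252). ALDH1L2, which burns formyl-tetrahydrofolate to make NADPH, had 134 and 154 normalised reads in siEZH2 SUM149 cells, against 87 and 59 in controls (0.39 ± 0.07). It had 6 reads or fewer in every MDA-MB-231 library of that experiment. ALDH1L2 would not have passed the filter on low values without the siEZH2 SUM149 libraries, so its rise, also in the counts above, is a description. With no filter the rise kept its call.

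**Figure D3:**
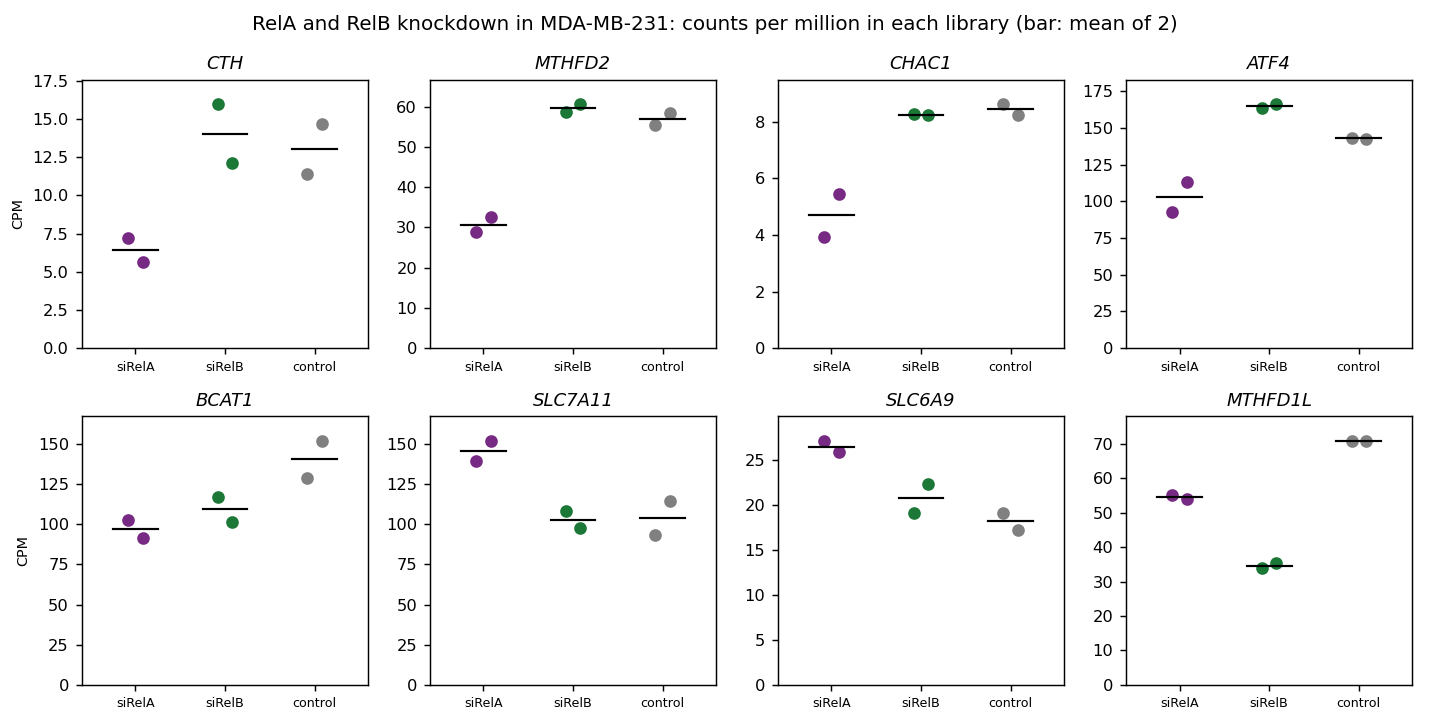
CPM (linear axis from 0) of 8 genes in each library of the RelA and RelB experiment in MDA-MB-231, with siRelA and siRelB left of the control and a bar at the mean of 2. For CTH, MTHFD2, CHAC1 and ATF4 the siRelA libraries lie below both other groups, for SLC7A11 and SLC6A9 they lie above, and MTHFD1L is lowest with siRelB, at 34.0 and 35.3 CPM.

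In asparagine, cysteine, proline and branched-chain metabolism every called change was a fall. With siRelA 3 of 5 tested genes of this group were lower, where 10.2% of all genes were, and with siRelB BCAT1 alone was, where 10.8% of all genes were. With siEZH2 4 of 6 were lower in MDA-MB-231 and 6 of 6 in SUM149, where 27.1% and 28.6% of all genes were, with none higher in any of the 4 by edgeR or limma, nor at an unadjusted p under 0.05. ASNS (asparagine synthetase) had 3097 and 3016 normalised reads in siEZH2 SUM149 cells, against 5568 and 5748 in controls, and 1774 and 1672 in siEZH2 MDA-MB-231 cells, against 2124 and 2014 in controls. The groups were apart in both lines, by -0.83 ± 0.05 (adjusted p = 3.63e-08) and -0.23 ± 0.05 (adjusted p = 0.00214). In the first experiment only 8 to 30 reads per library were counted for ASNS in the same line. RefSeq annotates a readthrough transcript over ASNS, and the sources used do not say how reads in overlapping genes were counted, so the ASNS counts of that experiment are uncertain.

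CTH (cystathionine gamma-lyase), which makes cysteine from cystathionine, had 7.2 and 5.64 CPM in siRelA cells, 15.97 and 12.1 CPM in siRelB cells and 11.4 and 14.7 CPM in controls. It had the largest fall of the module under siRelA, 2.03-fold and -1.02 ± 0.21 (adjusted p = 0.00216), and the siRelB libraries overlapped the controls. Under siEZH2 it had 319 and 286 normalised reads in MDA-MB-231, against 507 and 503 in controls, and 29 and 20 in SUM149, against 75 and 52 in controls. The changes were -0.48 ± 0.07 and -0.35 ± 0.07 (adjusted p = 9.37e-05 and 0.000995), and at so few reads the variance-stabilised scale understates the 2.57-fold difference in SUM149. CBS, the enzyme before CTH in transsulfuration, had 0 reads in all 6 libraries of the first experiment and was the 1 member not tested there. It was at 0 in all 4 MDA-MB-231 libraries of the second and at 138 and 123 normalised reads in siEZH2 SUM149 cells, against 168 and 155 in controls (-0.14 ± 0.06, adjusted p = 0.0476). The annotation used for counting is not stated. If it holds the near-identical copy CBSL, reads of CBS can go there, so the CBS level is uncertain.

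BCAT1, the cytosolic branched-chain aminotransferase, was lower in all 4 knockdowns. It had 102.8 and 91.4 CPM in siRelA cells and 117.2 and 101.2 CPM in siRelB cells, against 128.7 and 151.9 CPM in controls. Both controls exceeded the 4 knockdown libraries (-0.53 ± 0.10, adjusted p = 0.00176, with siRelA and -0.36 ± 0.10, adjusted p = 0.023, with siRelB). With siEZH2 it had 6943 and 7036 normalised reads in MDA-MB-231, against 8134 and 7646 in controls (-0.17 ± 0.05, adjusted p = 0.0176), and 19635 and 20007 in SUM149, against 26953 and 26485 in controls (-0.43 ± 0.05, adjusted p = 1.96e-05). The smaller BCAT1 changes rested on single libraries: the siRelB change was -0.25 (adjusted p = 0.261) without control replicate 2 and -0.27 (adjusted p = 0.174) without siRelB replicate 2, and the siEZH2 change in MDA-MB-231 had an adjusted p of 0.144 without control replicate 1.

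ALDH18A1, the first enzyme of proline synthesis from glutamate, had 126.6 and 117.1 CPM in siRelA cells, 134.9 and 136.2 CPM in siRelB cells and 149.3 and 150.0 CPM in controls. Controls were highest, with changes of -0.30 ± 0.08 for siRelA (adjusted p = 0.0198) and -0.14 ± 0.08 for siRelB (adjusted p = 0.267). Its siEZH2 values were 3914 and 3916 normalised reads in MDA-MB-231, against 5052 and 4909 in controls, and 4259 and 3867 in SUM149, against 5572 and 5695 in controls, changes of -0.33 ± 0.05 and -0.45 ± 0.05. PYCR1, the last enzyme of proline synthesis in mitochondria, had 4082 and 3704 normalised reads in siEZH2 SUM149 cells, against 6181 and 5798 in controls (-0.59 ± 0.06, adjusted p = 4.26e-06). In MDA-MB-231 PYCR1 overlapped between siEZH2 (2000 and 2214) and control (2113 and 2218).

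The genes of the secreted proteins STC2 and GDF15 were each called lower with siEZH2 in the line where they stood higher. GDF15, a stress cytokine, had 31 and 36 normalised reads in siEZH2 MDA-MB-231 cells, against 128 and 138 in controls, a 3.98-fold difference of means. It passed the filter on low values only through these 2 controls, so its difference, also in the counts above, is a description; with no filter it was -0.66 (adjusted p = 1.41e-05). In SUM149 it had 16 and 18 normalised reads with siEZH2, against 13 and 9 with control siRNA (0.10 ± 0.06, adjusted p = 0.168). STC2 (stanniocalcin 2) had 4478 and 4516 normalised reads in siEZH2 SUM149 cells, against 6496 and 6781 in controls (-0.53 ± 0.06, adjusted p = 7.51e-06), and 15 and 17 in siEZH2 MDA-MB-231 cells, against 27 and 19 in controls (-0.09 ± 0.06, adjusted p = 0.227). At so few reads the variance-stabilised scale compresses the STC2 change in MDA-MB-231. On recovered reads with edgeR the STC2 change differed between the lines by -0.04 (adjusted p = 0.974). VLDLR, the very low density lipoprotein receptor and an ATF4 target, rose in siEZH2 MDA-MB-231 cells to 343 and 346 normalised reads, against 244 and 202 in controls (0.36 ± 0.10, adjusted p = 0.00695). XPOT, which exports tRNA from the nucleus, fell by 0.32 ± 0.06 in siEZH2 SUM149 cells.

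Side by side, SLC7A1, MTHFD1L and BCAT1 passed as lower in each knockdown, but siRelA and siRelB share their 2 control libraries and are not independent observations. The members called in none were EIF2AK3, SESN2 and PHGDH. Between the lines under siEZH2, 16 members fell in both, where 18.8% of all genes fell in both, and DDIT4 and SLC38A2 rose in both, where 19.9% of all genes did. Without control replicate 1 of the first experiment siRelA lowered 7 members and raised none; the calls lost there were ALDH18A1 (adjusted p = 0.101), CHAC1 (0.0759), MTHFD1L (0.0789), PPP1R15A (0.0593), SLC6A9 (0.0501), SLC7A11 (0.0973) and SLC7A5 (0.131), each with its direction kept. Other libraries gave higher values for some of these: SLC6A9 had an adjusted p of 0.14 without control replicate 2, ALDH18A1 0.111 without siRelA replicate 2, and, without siRelA replicate 1, CHAC1 was -0.65 (adjusted p = 0.108) and PPP1R15A -0.26 (adjusted p = 0.138). The smaller siEZH2 changes also depended on single libraries: leaving 1 out gave adjusted p-values of up to 0.468 for CEBPB, 0.353 for SHMT2, 0.092 for SLC38A2, 0.0531 for SLC3A2 and 0.0951 for VLDLR in MDA-MB-231, and of up to 0.224 for CBS, 0.204 for DDIT3, 0.171 for SHMT2 and 0.278 for SLC6A9 in SUM149.

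The direct comparison of the NF-kB subunits asked whether siRelA and siRelB cells differ from each other. In siRelA cells 10 of 37 members were lower and 2 higher than in siRelB cells, where 14.0% of all genes were lower and 16.0% higher. Beside CTH (-1.12 ± 0.21), MTHFD2 (-0.96 ± 0.11), CHAC1, ATF4 and SESN2, the lower members were PSAT1 (-0.63 ± 0.09), SLC3A2 (-0.40 ± 0.08), SLC1A5 (-0.39 ± 0.08), CEBPG (-0.34 ± 0.11) and SLC7A5 (-0.28 ± 0.09), and the higher ones were SLC7A11 and MTHFD1L. CEBPG lost its call in each of the 4 fits without 1 siRelA or siRelB library (adjusted p of up to 0.119). SLC7A5 was -0.14 (adjusted p = 0.236) without siRelA replicate 2 and had an adjusted p of 0.121 without siRelB replicate 1, and CHAC1 had one of 0.103 without siRelA replicate 1.

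The effect of siEZH2 was then compared between SUM149 and MDA-MB-231 by the interaction term, SUM149 change minus MDA-MB-231 change. It passed for 17 of 38 members, 6 with a more positive and 11 with a more negative change in SUM149, where 11.2% and 10.4% of all genes passed in these directions. On recovered reads with edgeR 5 members were more positive and 9 more negative, with 1311 and 717 of all 14657 genes. SLC7A11 (0.85 ± 0.07, adjusted p = 3.86e-06) and ATF4 (0.33 ± 0.07, adjusted p = 0.00517) fell in both lines, by less in SUM149. SLC1A4 (0.43 ± 0.09) fell in MDA-MB-231, and DDIT3 (0.39 ± 0.11) fell less in SUM149. The SLC1A4 levels were 1550 and 1539 normalised reads in siEZH2 SUM149 cells, against 1392 and 1500 in controls, and 227 and 211 in siEZH2 MDA-MB-231 cells, against 355 and 316 in controls. For DDIT3 the values were 938 and 869 in siEZH2 SUM149 cells, against 1023 and 1154 in controls, and 419 and 500 in siEZH2 MDA-MB-231 cells, against 765 and 874 in controls.

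Of the 13 amino acid and one-carbon enzymes, 5 were among the more negative differences in SUM149, and ALDH1L2 was more positive. The largest of the 11 were PSAT1 (-0.63 ± 0.12, adjusted p = 0.00198), ASNS (-0.60 ± 0.07, adjusted p = 0.000109), CHAC1 (-0.59 ± 0.11) and PYCR1 (-0.55 ± 0.09, adjusted p = 0.000781). The others were DDIT4 (-0.46 ± 0.08), STC2 (-0.44 ± 0.09), ATF3, SLC7A5 (both -0.42 ± 0.11), TRIB3 (-0.40 ± 0.09), PSPH (-0.36 ± 0.11) and BCAT1 (-0.26 ± 0.08). Of the 21 members whose interaction did not pass, PPP1R15A (0.24 ± 0.09, adjusted p = 0.0849), MTHFD2 (-0.18 ± 0.07, adjusted p = 0.0925) and SLC7A1 (0.07 ± 0.11, adjusted p = 0.714) fell in both lines. On recovered reads with edgeR, the STC2 difference was -0.04 (adjusted p = 0.974) and that of ALDH1L2, 0.30 ± 0.10 in the variance-stabilised values, was -0.09 (adjusted p = 0.974). Without control replicate 1 of MDA-MB-231, 7 members were more negative in SUM149, and ATF3 (adjusted p = 0.0504), PSPH (0.121), SLC7A5 (0.0847) and TRIB3 (0.0611) did not pass. Without control replicate 2 of MDA-MB-231, 3 were more positive, since DDIT3 (0.129) and ALDH1L2 (0.177) did not pass and GDF15, then above the filter in too few libraries, was not tested. GDF15 is counted among the 6 but entered the test only through the MDA-MB-231 controls, and with no filter its difference was 0.76 (adjusted p = 0.000407). ALDH1L2, also among the 6, would not have entered the test without the siEZH2 SUM149 libraries, where it is high. With no filter the ALDH1L2 difference was 0.30 (adjusted p = 0.0996). PSPH and ALDH1L2 lost the call in 7 of the 8 fits without 1 library and BCAT1 in 6.

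**Figure D4:**
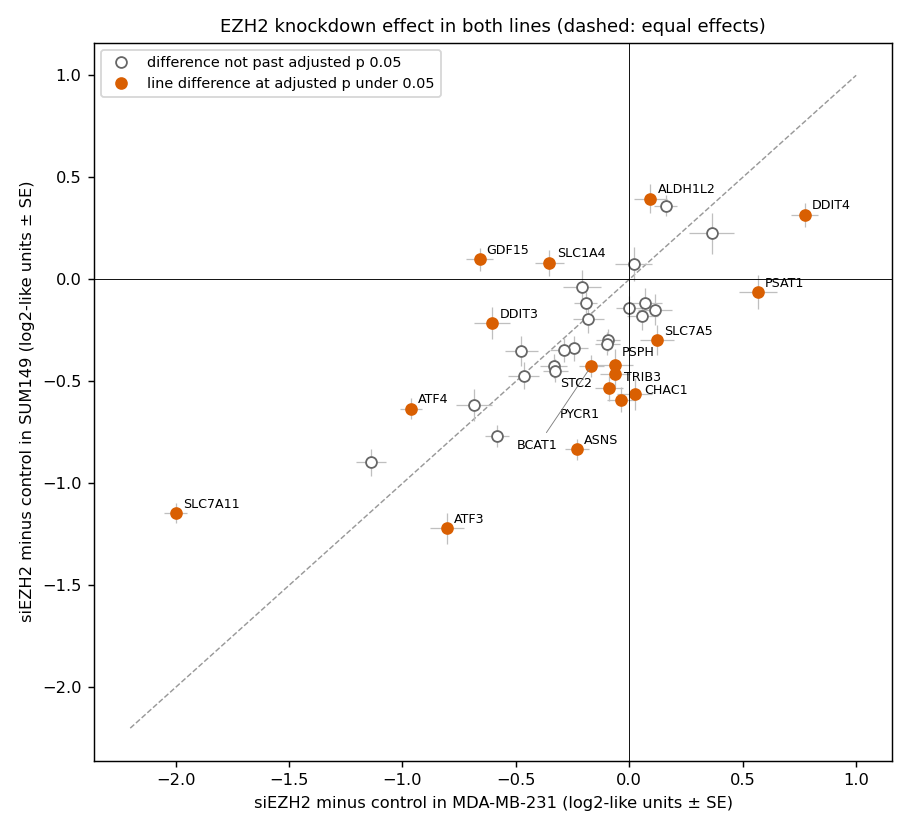
Change with siEZH2 in SUM149 (vertical) against that in MDA-MB-231 (horizontal) for the 38 genes, in variance-stabilised units ± SE; filled points differed between the lines at an adjusted p under 0.05. SLC7A11 lies farthest left at -2.0, ATF3 lowest at -1.22, and PSAT1 and DDIT4 farthest right at 0.57 and 0.77; points on the dashed line changed equally.

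Between the control cells of the lines, the module was expressed more highly in SUM149. There 28 of 38 members were higher and 6 lower than in MDA-MB-231, where 41.3% of all genes were higher and 41.5% lower. The median difference was 0.77 over the members, against 0.00 over all genes. Members such as STC2, CBS and ALDH1L2 passed the filter on low values only through SUM149 libraries, so their differences are descriptions. With no filter 28 members were also higher and 6 lower. STC2 had 6496 and 6781 normalised reads in SUM149, against 27 and 19 in MDA-MB-231, a 288-fold difference of means. PHGDH had 4233 and 4346 in SUM149, against 63 and 53 in MDA-MB-231, which is 73.9-fold. Both genes were among the least abundant members in MDA-MB-231.

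MTHFD2 was 9.69-fold higher in SUM149 controls (3.14 ± 0.05), DDIT4 6.89-fold (2.53 ± 0.06) and CEBPB 6.14-fold, with CEBPB at 3006 and 2638 normalised reads in SUM149 against 516 and 403 in MDA-MB-231 (2.13 ± 0.08). ATF4 itself was 1.9-fold higher (0.91 ± 0.05, adjusted p = 7.92e-10). The 6 members lower in SUM149 were SLC7A11 (3.67-fold, -1.79 ± 0.05), VLDLR (-1.53 ± 0.10), CTH (7.92-fold, -1.49 ± 0.07), PPP1R15A (2.13-fold, -1.04 ± 0.07), GDF15 (12.1-fold, -0.96 ± 0.06) and ATF5 (-0.38 ± 0.07). VLDLR had 10 and 0 normalised reads in SUM149 controls, so no fold is given. These controls lay below the filter on low values and the MDA-MB-231 controls above it, so the VLDLR difference, also among the 6, is a description. GDF15 passed the filter on low values only through the MDA-MB-231 controls, so its difference, also among the 6, is a description. ATF3, PSPH, SLC1A5 and EIF2AK4 did not pass. EIF2AK3 (0.24 ± 0.08) lost its call without MDA-MB-231 control replicate 2 (adjusted p = 0.207) and without SUM149 control replicate 2 (adjusted p = 0.201), as did ALDH18A1 (adjusted p = 0.0703 and 0.0596).

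**Figure D5:**
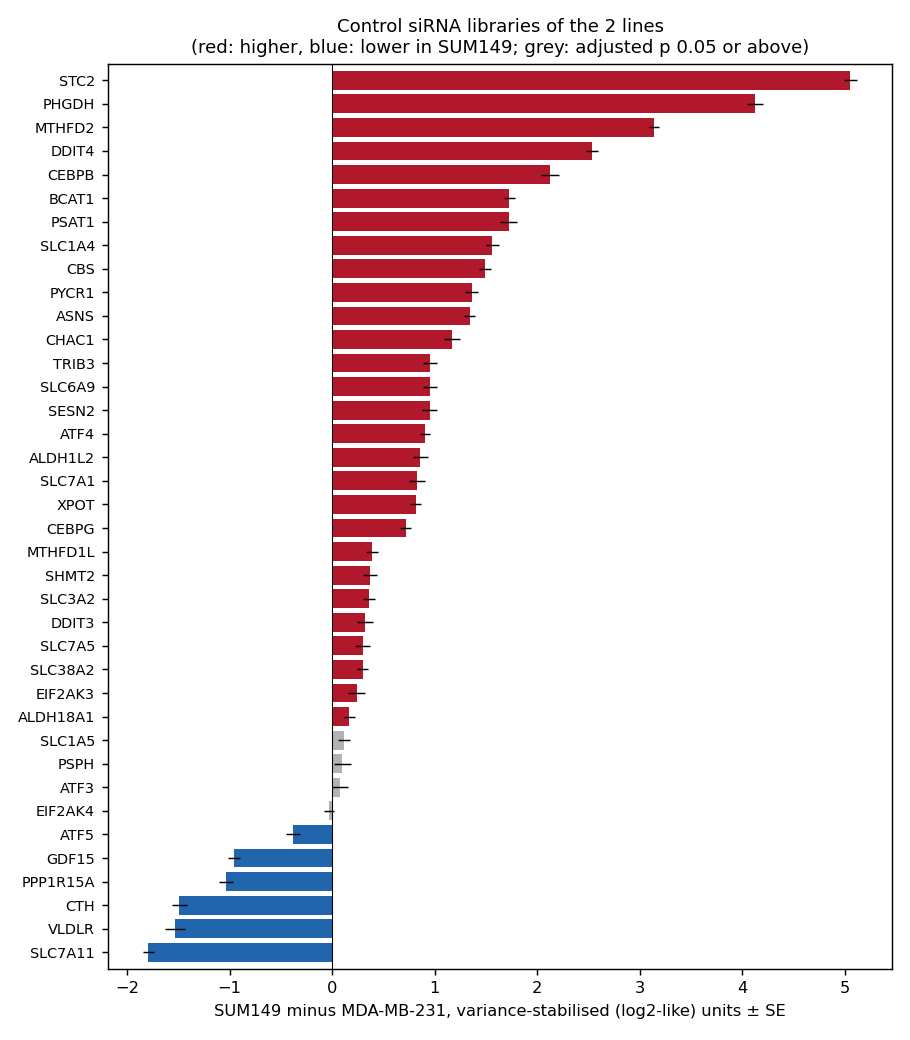
Difference ± SE between the control libraries of SUM149 and MDA-MB-231 for each of the 38 genes, in variance-stabilised units. STC2 (5.05), PHGDH (4.12) and MTHFD2 (3.14) are highest in SUM149 and SLC7A11 (-1.79) is lowest; 28 bars are red, 6 blue and 4 grey.

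Per length, the levels of the members in control MDA-MB-231 cells of the first experiment spanned a wide range. SLC7A5 was highest at 743 ± 8.54 TPM (length-scaled transcript abundance; SD, n = 2), followed by SLC1A5 at 281 ± 1.09, PSAT1 at 202 ± 2.52, ATF4 at 198 ± 6.76 and SLC3A2 at 173 ± 3.8. PSAT1 and ATF4 did not differ beyond their spread, nor did SLC3A2 and SLC7A1 (165 ± 9.79 TPM). PHGDH stood at 5.61 ± 0.223 TPM, ATF3 at 3.27 ± 1.35 TPM, and ASNS, STC2 and ALDH1L2 below 1 TPM. The length of each gene was the union of all its exons in GENCODE v44, not the annotation used for counting. It was 9187 bases for PHGDH and 20691 for EIF2AK3, so levels of such genes can be understated. The ASNS counts behind its level are uncertain, as given above.

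The other genes of the pathway were taken from 5 lists, whose counts stand beside the all-gene shares of 8.82% higher and 10.2% lower with siRelA, 7.45% and 10.8% with siRelB, 29.4% and 27.1% with siEZH2 in MDA-MB-231, and 29.4% and 28.6% in SUM149. Of the other eIF2 and stress response genes, siRelA raised 3 and lowered 5 of 24, siRelB 6 and 6 of 24, and siEZH2 raised 5 and lowered 8 of 22 in MDA-MB-231 and raised 4 and lowered 10 of 22 in SUM149. The remaining eIF2alpha kinases were EIF2AK1 (HRI, activated by haem shortage and mitochondrial stress) and EIF2AK2 (PKR, activated by double-stranded RNA). EIF2AK1 averaged 60.5 ± 3.56 CPM in siRelA cells and 174.0 ± 0.68 CPM in controls (SD, n = 2 each), a change of -1.52 ± 0.09 (adjusted p = 3.43e-09), and changed by -0.30 ± 0.08 with siRelB (adjusted p = 0.0218). EIF2AK2 fell by 0.17 ± 0.06 in siEZH2 SUM149 cells (adjusted p = 0.0255). SESN3, a sestrin, rose in all 4 knockdowns, by 1.92 ± 0.18 (siRelA), 1.05 ± 0.18 (siRelB), 0.87 ± 0.06 (siEZH2, MDA-MB-231) and 0.34 ± 0.06 (siEZH2, SUM149). EIF2B2, a subunit of the exchange factor that phosphorylated eIF2alpha blocks, fell by 1.05 in MDA-MB-231 and by 0.87 in SUM149 under siEZH2.

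Of the unfolded protein response genes, siRelA raised 1 and lowered 6 of 20, among them DNAJB9 (-1.20) and ERN1 (IRE1, -1.0), and siRelB lowered 5 and raised none by edgeR, nor at an unadjusted p under 0.05. With siEZH2, 9 rose and 2 fell of 20 in MDA-MB-231, and 7 rose and 4 fell in SUM149, where 29.4% of all genes rose in either line, led by EDEM1, a degradation factor, at 0.94 and 1.05. Among the other serine, glycine and folate genes siRelA raised 2 and lowered 4 of 15, siRelB lowered 1 (SHMT1, -0.63) and raised none, nor at an unadjusted p under 0.05 by edgeR, and siEZH2 raised 5 and lowered 6 of 15 in MDA-MB-231 and raised 4 and lowered 5 in SUM149. SFXN1, a mitochondrial serine transporter, had the largest rise of these genes: 6108 and 6149 normalised reads in siEZH2 MDA-MB-231 cells, against 1181 and 1154 in controls, and 7187 and 6718 in siEZH2 SUM149 cells, against 2656 and 2656 in controls. All siEZH2 libraries exceeded all controls, by 2.16 ± 0.05 (adjusted p = 2.36e-11) and 1.30 ± 0.05 (adjusted p = 7.21e-10). MTR (methionine synthase) rose by 1.42 ± 0.05 in MDA-MB-231 and by 1.08 ± 0.05 in SUM149.

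Of the glutathione and NRF2 genes, siRelA raised 5 and lowered 3 of 17, siRelB raised 4 and lowered 2, and siEZH2 raised 5 and lowered 6 in MDA-MB-231 and raised 6 and lowered 7 in SUM149. The siEZH2 rises are near the 29.4% of all genes that rose in each line. The catalytic and modifier subunits of glutamate-cysteine ligase, which uses the cysteine that xCT supplies, moved apart under siEZH2: GCLC fell by 0.67 in MDA-MB-231 and by 0.64 in SUM149, while GCLM rose by 0.61 and by 0.54. HMOX1 (haem oxygenase 1) rose by 1.09 with siRelA and by 0.91 with siEZH2 in SUM149, and TXNRD1 (thioredoxin reductase) fell by 0.60 with siRelB, by 0.56 with siEZH2 in MDA-MB-231 and by 0.60 in SUM149. Among the other amino acid transporters and enzymes siRelA raised 2 and lowered 7 of 28, siRelB raised 3 and lowered 5, and siEZH2 raised 3 and lowered 13 of 26 in MDA-MB-231 and raised 4 and lowered 10 in SUM149. SLC38A1, a glutamine importer, rose by 0.55 and 0.71 in MDA-MB-231 and SUM149 under siEZH2, and SLC7A6, a cationic amino acid exchanger, fell by 0.58 and 0.62.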

How the data were processed

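The authors deposited raw read counts per Ensembl gene for the first experiment (whole numbers). For the second they deposited values after a variance-stabilising transformation, log2-like and normalised between libraries. For the counts, featureCounts 1.5.0-p3, HISAT2 2.0.5 and DESeq2 1.20.0 are listed with build hg19, per the submitters' processing notes. For the second experiment these list Salmon, STAR 2.5.2b, cutadapt and DESeq2 with hg19. What each tool did, the annotation, strandedness and the options of the transformation are not stated in the sources used. Total counts per library limit the precision of genes with few reads, and p-values rest on 2 biological replicates per group.

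Counts were fitted with the quasi-likelihood test of edgeR 4.0.16 (TMM, default filter on low counts, all 6 libraries, 15930 genes, 3 residual degrees of freedom). The second table was fitted in limma 3.58.1 (eBayes with trend, all 8 libraries, 4 residual degrees of freedom) on 12356 genes at least 1 above the lowest value of 7.12 in at least 2 libraries. P-values were adjusted by Benjamini-Hochberg over all genes tested, and a gene was called under 0.05. All 38 members passed the filter of the second experiment and 37 that of the first. The tables were normalised separately and were never tested against each other.

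Normalised reads for the second experiment were recovered by inverting the variance-stabilising formula of DESeq2, which assumes its parametric dispersion fit; 78.4 to 83.0% of values between 0.5 and 10.5 reads were whole within 0.05. They give per-library values and folds of means and an edgeR alternative, chosen after seeing the data. Replicates differed beyond sampling noise and none were identical. Scripts were tested on simulated counts. R 4.3.3, Python 3.11.15, numpy 2.4.6, pandas 2.3.3 and matplotlib 3.10.9 were used, with DESeq2 1.42.0 as an alternative test.

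The members and lists were chosen with earlier results of these data known. Library values are printed for ATF4, for members called in at least 3 of 4 knockdowns, for the 5 largest called rises and falls of each comparison, and for others where they help; pathway genes are the 3 with the largest called change per list and comparison, with NFE2L2 and the kinases, and not all are printed. Only RNA was measured, while ATF4 is known to be controlled largely by translation. Sequences are from RefSeq on GRCh38.p14 and were not converted to hg19.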

Additional observations from a re-analysis of the deposited data

Results flagged for a closer look

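The effect of siEZH2 differed between SUM149 and MDA-MB-231 by the limma interaction term (SUM149 change minus MDA-MB-231 change, ± SE) for 17 of the 38 members and for 14 of the pathway genes named. Members with a positive difference were SLC7A11 (0.85 ± 0.07), GDF15 (0.76 ± 0.08), SLC1A4 (0.43 ± 0.09), DDIT3 (0.39 ± 0.11), ATF4 (0.33 ± 0.07) and ALDH1L2 (0.30 ± 0.10). Those with a negative difference were PSAT1 (-0.63 ± 0.12), ASNS (-0.60 ± 0.07), CHAC1 (-0.59 ± 0.11), PYCR1 (-0.55 ± 0.09), DDIT4 (-0.46 ± 0.08), STC2 (-0.44 ± 0.09), ATF3 (-0.42 ± 0.11), SLC7A5 (-0.42 ± 0.11), TRIB3 (-0.40 ± 0.09), PSPH (-0.36 ± 0.11) and BCAT1 (-0.26 ± 0.08). Adjusted p-values over all genes ran from 3.86e-06 for SLC7A11 to 0.049 for ALDH1L2. GDF15 entered the test only through the MDA-MB-231 controls, where it stands high. ALDH1L2 would not have entered it without the siEZH2 SUM149 libraries, where it stands high. With edgeR on recovered reads the difference was -0.04 for STC2 and -0.09 for ALDH1L2 (adjusted p = 0.974 each).

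Among the pathway genes the difference was positive for ASS1 (0.81), HMOX1 (0.80), TRIB2 (0.71), SLC1A3 (0.51), GLUL (0.49), SFXN3 (0.44) and DNAJC3 (0.32). It was negative for SFXN1 (-0.86), XBP1 (-0.56), SESN3 (-0.53), MANF (-0.48), GLDC (-0.39), CHAC2 (-0.38) and SLC6A6 (-0.27). With edgeR on recovered reads the SESN3 difference had the opposite sign. SFXN1 rose in both lines, by 1.30 in SUM149 and by 2.16 in MDA-MB-231. ASS1, which makes argininosuccinate, rose by 0.60 in SUM149 and fell by 0.21 in MDA-MB-231, and TRIB2 rose by 0.45 in SUM149 and fell by 0.26 in MDA-MB-231. XBP1, the spliced factor of the unfolded protein response, fell by 0.38 in SUM149 and rose by 0.18 in MDA-MB-231. No group here holds 4 or more libraries, so no library was tested against the rest of its group.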

How the results depend on the processing

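Results were recomputed with other size factors, DESeq2, other filters, no variance trend, median-centred libraries, recovered reads, a replicate block and each library left out. Over the members, 1169 values under settings with all libraries kept a call with its direction or stayed uncalled. A further 22 lost and 8 gained a call, and 1 reversed. With a library left out 1758 kept a call with its direction or stayed uncalled, 93 lost and 23 gained a call, and none reversed. Directions were compared only for values called in at least 1 of the 2 fits. The reversed member was ALDH1L2 in the siEZH2 effect of SUM149 minus MDA-MB-231 (the line difference), -0.0864 on recovered reads; the pathway gene SESN3 there was 0.25, and both are genes with few reads in 1 line. With the replicate block 1 member rose under siRelB, where 0 rose without it, and no other count of members moved by over 1.5 times with the block. On recovered reads 717 genes were lower for the line difference, against 1281. Same-numbered libraries deviated together by correlations of -0.117 to 0.093, the numbers mark no shared batch in the labels, and siRelA then called 2958 genes against 3031. Leaving out 1 library gave 0 to 3 members up and 7 to 13 down with siRelA (1624 to 3287 genes in all), 0 to 1 up with siRelB (1520 to 3362 genes), 2 to 5 up with siEZH2 in MDA-MB-231, and 3 to 6 up and 7 to 11 down for the line difference (1611 to 2532 genes). The lowest values came without control replicate 1 (siRelA, and the line difference for down and all genes) or control replicate 2 (siRelB, and members up under siEZH2 in MDA-MB-231 and for the line difference). The causes were not tested. Low counts limit STC2 and ALDH1L2 in the first experiment, each at 30 reads or fewer per library.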
